A study of Mus musculus with 9 samples.

Results

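The 40 genes described here encode proteins that hepatocytes make and release into blood plasma. They were taken as a listed set, and all 40 were rows of the deposited count table, out of 27998 genes. Their levels were read in hepatocyte-like cells and in every other class of liver cell, in each of 9 single-cell RNA-seq libraries. The study asked how acute or sustained induction of the transcriptional co-activator YAP changes the cells of the adult mouse liver. All mice were C57BL/6 and carried rtTA, the transactivator that doxycycline switches on, with EGFP at the ROSA26 locus, and all received doxycycline food. The 2 WT mice had no YAP transgene and were fed for 7 days. The 4 YAP3d and 3 YAP7d mice also carried tetYAP, a doxycycline-driven YAP transgene, and were fed for 3 and 7 days. WT and YAP3d mice therefore differed in the time on doxycycline as well as in the transgene. The methods of the study describe a cross to Alb-Cre mice, in which the albumin promoter drives recombination in hepatocytes, and a constitutively active form of YAP. They also describe a preparation aimed at non-hepatocytes.

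Plasma proteins are the main secretory product of the hepatocyte. Apolipoproteins package lipids, carriers such as albumin, transthyretin and transferrin hold hormones, vitamins, metals and heme, and the serpins and inter-alpha-trypsin inhibitor chains restrain proteases, while fibrinogen and prothrombin form the clot. Their genes are read in hepatocytes under a shared set of liver transcription factors, among them HNF1, HNF4 and C/EBP, and some are acute-phase genes that inflammatory cytokines raise. Because these RNAs are abundant, those released from broken hepatocytes can enter droplets that hold other cells. Some plasma protein genes are also transcribed outside hepatocytes, such as Apoc1 in macrophages and Hp in myeloid cells.

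After 35 of 8562 cells with under 200 detected genes were left out, 115 of 8527 cells were hepatocyte-like, meaning that they fell in the cluster in which all 24 hepatocyte markers (enzymes, transporters and Hnf4a, none of them a member) were raised. The members themselves took no part in clustering and were not naming markers. They could stand among the leading genes of a cluster, which the naming also used. The WT replicates had 2 and 1 hepatocyte-like cells, the YAP3d replicates 9, 13, 18 and 11, and the YAP7d replicates 28, 22 and 11. A further 8193 cells of other named classes were pooled as non-hepatocyte cells, and 49 cholangiocyte-like and 170 unnamed cells were kept apart. Levels are given as UMIs (unique molecular identifiers, each standing for 1 captured RNA molecule) per 1000000 UMIs of the same class and library, written CPM. The reads count the 3′ end of each RNA, so that levels of different genes need no scaling by length. Libraries held 1314878 to 25056881 UMIs, and median UMIs per cell were 3190.5 and 4358 in WT, 3380 to 5069.5 in YAP3d and 5717 to 11471.5 in YAP7d. The higher depth of YAP7d cannot be told apart from the group. The methods give 1 kit version for whole-liver libraries, which these 9 are by their titles. Over all 36 pairs of libraries 48 cell barcodes were shared, at most 7 in a pair.

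The promoters of 29 of the 40 members were in the RefSeq table for GRCm38.p6, and the 250 bases before the start of transcription were searched on both strands for 5 motifs. The HNF1 motif GTTAAT stood before 10 of the 29 members and in 6.43% of all 32851 promoters. It was found for Alb, Gc, Vtn, Fga, Fgb and all 5 Serpina1 genes. The C/EBP motif TTGCNNAA stood before 11 of 29 members (9.56% of all promoters), the HNF4 part AAAGTCC before 2 (3.58%), TATAAA before 6 (12.4%) and GGAATG, read by TEAD, the DNA-binding partner of YAP, before 4 (12.6%), namely Fga, Fgb, Mup3 and Vtn. A match is only a match of letters. Members were counted if any of their promoters matched (33 promoters for the 29 members), whereas the percentages are of single promoters. The sequences shown are those of Alb, the best-known member, of Apoa2, which was lower in YAP7d among the pooled cells below, and of Serpina1c and Serpina1e, the paralogs with the most and the fewest UMIs in hepatocyte-like cells. Sequences are read 5′ to 3′ on the strand of the gene and end 1 base before the start. Letters in capitals mark motif matches within the bases shown, 250 for Alb and Apoa2 and 120 for the Serpina1 genes. In Apoa2 an AAAGTCC match and a TTGCNNAA match, both on the other strand, overlap and appear as 1 run of capitals.
Alb (chr5:90460620-90460869, + strand): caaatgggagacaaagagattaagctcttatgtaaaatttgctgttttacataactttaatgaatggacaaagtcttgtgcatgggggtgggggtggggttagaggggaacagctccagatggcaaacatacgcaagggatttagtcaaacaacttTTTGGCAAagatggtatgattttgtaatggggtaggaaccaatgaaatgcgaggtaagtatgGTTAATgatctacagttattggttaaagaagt
Apoa2 (chr1:171221314-171221563, + strand): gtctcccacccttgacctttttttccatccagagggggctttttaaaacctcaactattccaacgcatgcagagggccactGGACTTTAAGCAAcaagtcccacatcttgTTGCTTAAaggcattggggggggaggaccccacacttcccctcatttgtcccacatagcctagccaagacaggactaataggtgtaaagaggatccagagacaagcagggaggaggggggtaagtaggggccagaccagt
Serpina1c (chr12:103904951-103905070, - strand): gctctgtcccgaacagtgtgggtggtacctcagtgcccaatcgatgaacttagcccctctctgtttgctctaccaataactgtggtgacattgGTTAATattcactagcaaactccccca
Serpina1e (chr12:103956898-103957017, - strand): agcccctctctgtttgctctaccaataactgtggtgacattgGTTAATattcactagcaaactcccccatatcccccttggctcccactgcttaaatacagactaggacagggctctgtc
The 5 Serpina1 genes, all on chromosome 12, shared an identical run of 55 bases that holds the GTTAAT match (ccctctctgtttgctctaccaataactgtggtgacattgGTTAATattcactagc). It began 55 to 66 bases before the annotated start in Serpina1a to Serpina1d and 117 bases before it in Serpina1e, whose annotated start lies further downstream.

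Hepatocyte-like cells carried the members at 35829 to 86375 CPM summed over the 40 genes. Every member was detected in them, with 12 to 39 members (median 27) in a single cell. In a cell the members made up 1.30 to 22.6% of UMIs, with a median of 5.90%. The lipoprotein genes held 42.7% of the member UMIs, the carriers 38.5%, the protease inhibitors 15% and the coagulation and matrix genes 3.75%. The 6 members with the most UMIs (Apoc1, Alb, Trf, Apoa2, Apoc3 and Apoa1) held 61.5%. Over the 7 libraries with at least 5 hepatocyte-like cells, 16 members had a median above 1000 CPM and 9 had one below 100 CPM. The latter were Apob, Apoa5, Serpina1e, Serpina3m, Serpinf2, Itih3, Itih4, Fetub and Plg.

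**Figure D1:**
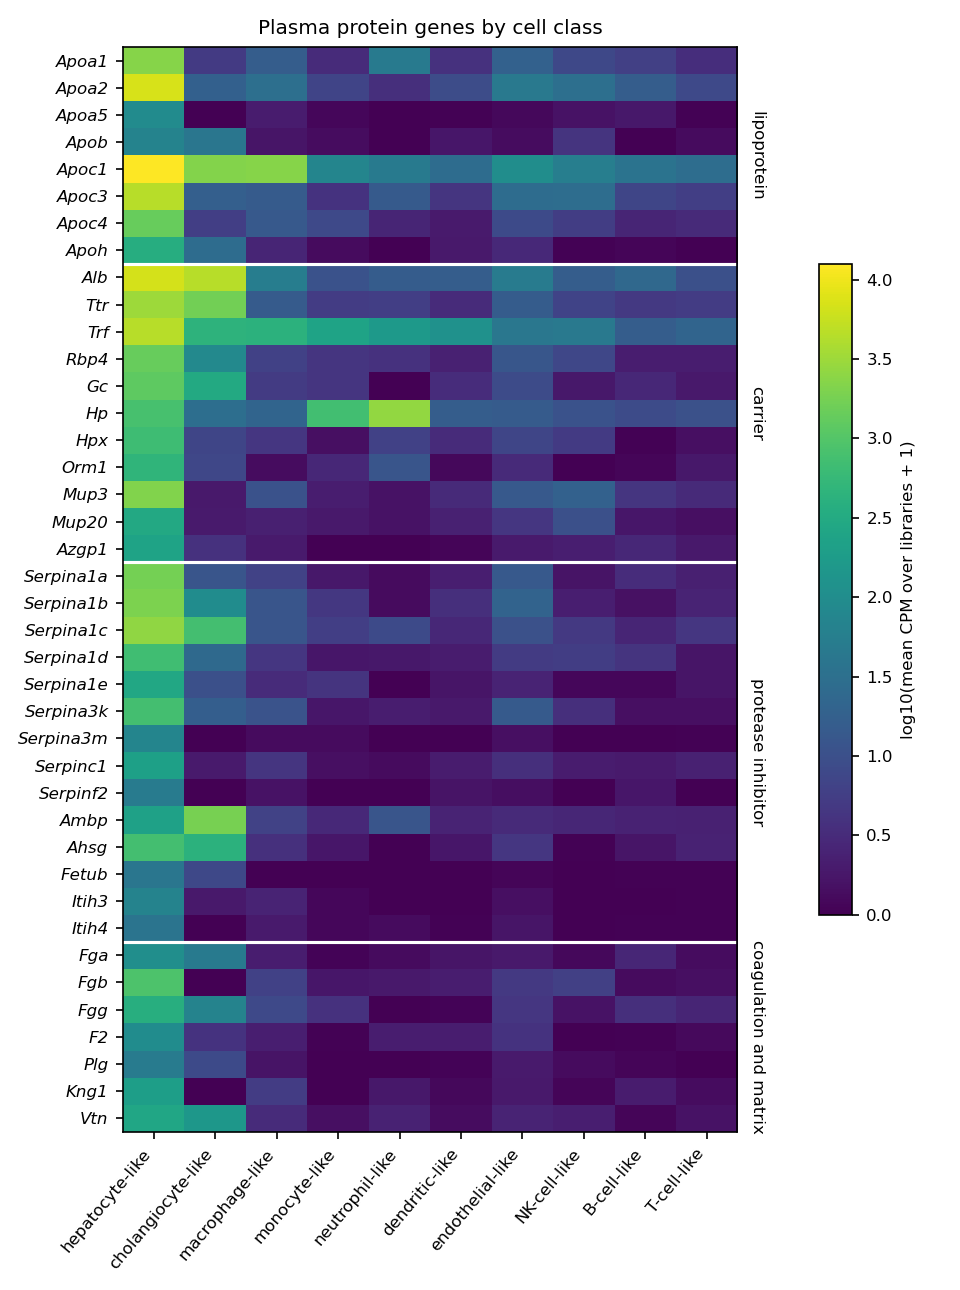
Mean CPM over libraries of each of the 40 members (rows, grouped by role) in 10 named classes (columns), coloured by log10(mean CPM + 1). Hp is also high in monocyte-like and neutrophil-like cells, Apoc1 in macrophage-like cells, Trf in several myeloid classes, and Alb, Ttr, Ambp and Ahsg in cholangiocyte-like cells.

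Among the lipoprotein genes, Apoc1, which encodes a small apolipoprotein of triglyceride-rich particles and HDL, was the most abundant member. It stood at 13024 and 9934 CPM in WT, 13001, 18612, 11959 and 9586 CPM in YAP3d and 13862, 13002 and 10280.2 CPM in YAP7d. These levels spanned 1.94-fold over the 7 libraries with at least 5 cells, and the groups overlapped. Apoa1, the main protein of HDL, stood at 1464 and 662 CPM in WT, 3093, 2576, 599 and 621 CPM in YAP3d and 2561, 4471 and 4209.8 CPM in YAP7d. YAP3d replicates 3 and 4 were lower than the other YAP3d and YAP7d libraries, in which the groups overlapped. Apob, the structural protein of VLDL and LDL, was close to its detection limit, with 0 UMIs in WT, 12, 7, 1 and 5 UMIs in YAP3d and 8, 19 and 2 UMIs in YAP7d. Its RNA is long, and only its 3′ end is counted.

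Among the carriers, Alb (albumin; chromosome 5, positions 90460870 to 90476602 of GRCm38.p6) varied 7.11-fold over the 7 libraries with at least 5 cells. It stood at 1618 and 662 CPM in WT, 17393, 6468, 3927 and 2447 CPM in YAP3d and 7415, 11646 and 9404 CPM in YAP7d. YAP3d replicate 1 was the highest and YAP3d replicate 4 the lowest of the induced libraries, so YAP3d spanned YAP7d. Both WT values were below all 7 induced libraries, but they rest on 21 and 1 Alb UMIs in 3 cells. In single cells Alb exceeded Apoc1 in 21 of 115, and 1 cell had no Alb UMI. Ttr (transthyretin, the carrier of thyroxine and of retinol-binding protein) stood at 4393 and 3311 CPM in WT, 3900.2, 4401, 3018 and 2045 CPM in YAP3d and 2434, 3314 and 1799 CPM in YAP7d, with overlapping groups. Mup3, a major urinary protein that binds pheromones, stood at 1156 and 3311 CPM in WT, 4393, 3127, 976 and 649.9 CPM in YAP3d and 2302, 1799.7 and 1054 CPM in YAP7d, and again the groups overlapped. Reads of the Mup genes, like those of the Serpina1 and Serpina3 clusters, can fall on near-identical copies, so their counts are less certain than the others.

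The Serpina1 genes encode alpha-1-antitrypsin, the main inhibitor of neutrophil elastase, in 5 copies. Their summed level was 3545 and 2649 CPM in WT, 7012, 5945, 17484 and 4319.7 CPM in YAP3d and 3133, 7896 and 13707 CPM in YAP7d, and the induced groups overlapped. Serpina1c, at 925 and 662 CPM in WT, 2167, 2362, 7167 and 1338 CPM in YAP3d and 1070.4, 2719 and 4807 CPM in YAP7d, had the most UMIs of the 5 in each of the 7 induced libraries. Serpina1e differed most between libraries, at 768, 121, 1464 and 66.9 CPM in YAP3d and 14.7, 63.4 and 62 CPM in YAP7d, and had no UMI in WT. As a part of the family's UMIs it made up 11, 2.03, 8.38 and 1.55% in YAP3d and 0.468, 0.803 and 0.452% in YAP7d. The 3 YAP7d libraries were below all 4 YAP3d libraries on both scales.

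Of the acute-phase members, the hemoglobin-binding Hp stood at 77.1 and 0 CPM in WT, 1615, 778, 199.7 and 134 CPM in YAP3d and 1085, 1903 and 1403 CPM in YAP7d. The heme-binding Hpx stood at 231 and 662 CPM in WT, 1221, 335, 66.6 and 134 CPM in YAP3d and 503, 1118 and 1729 CPM in YAP7d. For both, YAP3d replicate 1 lay among the YAP7d libraries and YAP3d replicates 3 and 4 were far lower, so the groups overlapped. Orm1, which encodes the drug- and lipid-binding orosomucoid, stood at 539 and 0 CPM in WT, 532, 778, 688 and 698 CPM in YAP3d and 308, 436 and 364 CPM in YAP7d, and all YAP7d libraries were below all YAP3d libraries. The fibrinogen chain Fga stood at 77.1 and 0 CPM in WT, 78.8, 107, 44.4 and 47.8 CPM in YAP3d and 205, 222 and 147 CPM in YAP7d, and here all YAP7d libraries were above all YAP3d libraries. The other fibrinogen chains overlapped: Fgb stood at 308 and 662 CPM in WT, 1005, 1019.8, 865 and 258 CPM in YAP3d and 1427, 1403 and 1023 CPM in YAP7d. Fgg stood at 154 and 0 CPM in WT, 650, 711, 288 and 162 CPM in YAP3d and 449.7, 484 and 379.9 CPM in YAP7d. The remaining acute-phase members were rare, which limits what their levels can show. Itih3 and Itih4, heavy chains of inter-alpha-trypsin inhibitors, had at most 15 and 8 UMIs in a library, and the serpin Serpina3m at most 18. In YAP3d and YAP7d libraries Itih3 ranged from 22.2 to 93.9 CPM, Itih4 from 0 to 107 CPM and Serpina3m from 22.2 to 138 CPM, with overlapping groups.

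**Figure D2:**
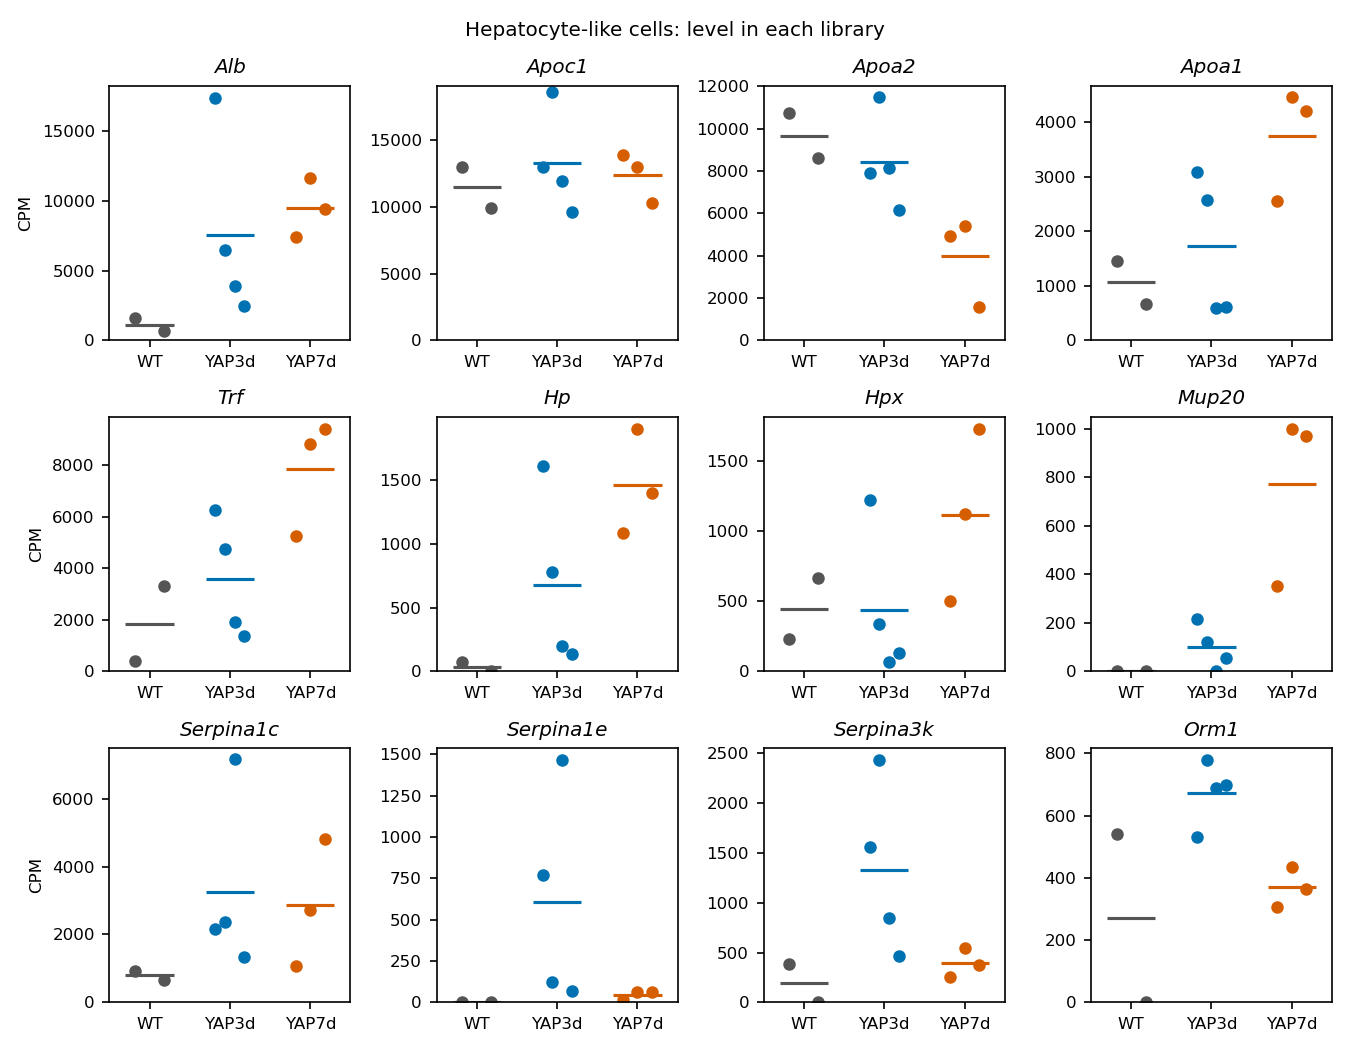
CPM in hepatocyte-like cells (vertical axis, from 0) of 12 members in each library, with WT grey, YAP3d blue and YAP7d orange; points are libraries and bars are group means. WT points rest on 2 and 1 cells. YAP7d lies above YAP3d for Mup20 and below it for Serpina1e, Orm1 and Apoa2, whereas Alb, Apoc1, Hp, Hpx and Serpina3k overlap.

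The comparison of sustained with acute induction was tested in hepatocyte-like cells over 4 YAP3d and 3 YAP7d libraries, since WT had too few cells. Of the 32 members that passed the filter on low counts, 1 was called, against 42 of 1651 genes (2.54%), of which 12 were higher (0.727%) and 30 lower (1.82%). Without YAP3d replicate 3 or 4 or YAP7d replicate 1, 2 or 3, the genes called higher numbered 3, 3, 3, 5 and 3 and those called lower 3, 4, 1, 4 and 2. Without YAP3d replicate 1 there were 23 higher, and without YAP3d replicate 2 there were 46 lower. DESeq2 gave 16 higher and 58 lower, the replicate block 3 and 12, and no filter on low counts 95 and 67 of 11610 genes. The member was Mup20, which encodes darcin, a pheromone of male mouse urine. It stood at 0 and 0 CPM in WT, 217, 121, 0 and 57.3 CPM in YAP3d and 352, 999 and 969 CPM in YAP7d. All YAP7d libraries were above all YAP3d libraries (log2 fold change of 2.92 ± 0.62 by edgeR, adjusted p = 0.0429; the value after ± is the SE, here and below). The call was lost when YAP3d replicate 2, 3 or 4 or any YAP7d replicate was left out, although the log2 fold change stayed between 2.61 and 3.49 in the 16 alternatives, where the adjusted p reached 0.198. The members' median log2 fold change was 0.11, with 17 of 32 above 0, beside 0.03 over all genes tested. Its sign was not stable: it was -0.20 without YAP3d replicate 4 (12 of 32 above 0), -0.13 without YAP7d replicate 2, -0.049 without YAP7d replicate 3, -0.17 with the replicate block, -0.0099 with the stricter cell filter and 0.25 without YAP3d replicate 1.

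The other members at the ends of the range did not pass the threshold, although some alternatives called them. Fga gave a log2 fold change of 1.40 ± 0.37 by edgeR, adjusted p = 0.0807. Hpx gave a log2 fold change of 1.30 ± 0.76 by edgeR, adjusted p = 0.388. Without YAP3d replicate 1, the library that a minimum of 10 cells also leaves out, it was called, at a log2 fold change of 2.56. At the other end Serpina1e gave a log2 fold change of -3.71 ± 1.05 by edgeR, adjusted p = 0.0915, with 3 to 8 UMIs in each YAP7d library. Without YAP3d replicate 1, 2 or 3 it no longer passed the filter on low counts. Serpina3k, a relative of the human antichymotrypsin and kallistatin genes, stood at 385 and 0 CPM in WT, 1556, 2429, 843 and 468 CPM in YAP3d and 254, 547 and 372 CPM in YAP7d. Its groups did not overlap except for YAP3d replicate 4, which lay below YAP7d replicate 2 (log2 fold change of -1.81 ± 0.52 by edgeR, adjusted p = 0.0928). Apoa2, the second protein of HDL, stood at 10712 and 8609 CPM in WT, 7919, 11513, 8121 and 6145 CPM in YAP3d and 4912, 5391 and 1589 CPM in YAP7d. All YAP7d libraries were below all YAP3d libraries (log2 fold change of -1.14 ± 0.37 by edgeR, adjusted p = 0.137). Serpina1e and Serpina3k were called with the replicate number as a block, where Mup20 was not, and also with DESeq2 and with no filter on low counts. With no filter Fga, Hpx and Apoa2 were called as well. Of Orm1, the edgeR adjusted p was 0.0542 at a log2 fold change of -0.93. Alb, Trf and Apoc1 gave log2 fold changes of 0.24, 1.07 and -0.15 (edgeR adjusted p = 0.86, 0.26 and 0.768). By role, 1 of 11 carriers rose, and none of 6 lipoprotein, 9 protease inhibitor and 6 coagulation and matrix genes tested was called. Of the 6 acute-phase members tested none was called, and their median was 0.86, with 4 of 6 above 0.

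Other hepatocyte genes in the same cells gave these counts. Of 40 listed enzymes and transporters 26 were tested, and 7 were lower in YAP7d, with a median log2 fold change of -1.20. They included Fabp1, the liver fatty acid binding protein gene (log2 fold change of -2.11 ± 0.44 by edgeR, adjusted p = 0.0429), and the enzyme genes Adh1, Bhmt and Otc. The list overlaps the markers that named the class. With the replicate block, or without YAP3d replicate 3 or 4 or any YAP7d replicate, 0 of the list were called, and the median stayed between -1.49 and -0.86. Of 13 acute-phase genes outside the members 3 were tested and 1 was higher, Apcs (serum amyloid P; log2 fold change of 2.56 ± 0.51 by edgeR, adjusted p = 0.0409), which those same fits and DESeq2 did not call. Neither the 14 tested genes of 40 other secreted liver proteins nor the 4 of 18 liver transcription factors held a call, with medians of 0.30 and -0.27. Whether the plasma protein genes differed from the enzymes was not tested. Markers of macrophages moved with the groups: their summed level over 12 markers, all detected, was 39.4 to 201 CPM in the hepatocyte-like cells of YAP3d and 269 to 753 CPM in those of YAP7d, and those of endothelial cells went the other way, from 93.9 to 937 CPM in YAP3d to 9.78 to 71.4 CPM in YAP7d. The 24 markers that named the class fell too, from 32299 to 62425 CPM in YAP3d to 19413 to 26987 CPM in YAP7d. Erythroid markers fell from 40.3 to 138 CPM in YAP3d to 15.5 to 39.1 CPM in YAP7d, and the remaining marker lists overlapped. The part of these markers in these results was not tested.

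**Figure D3:**
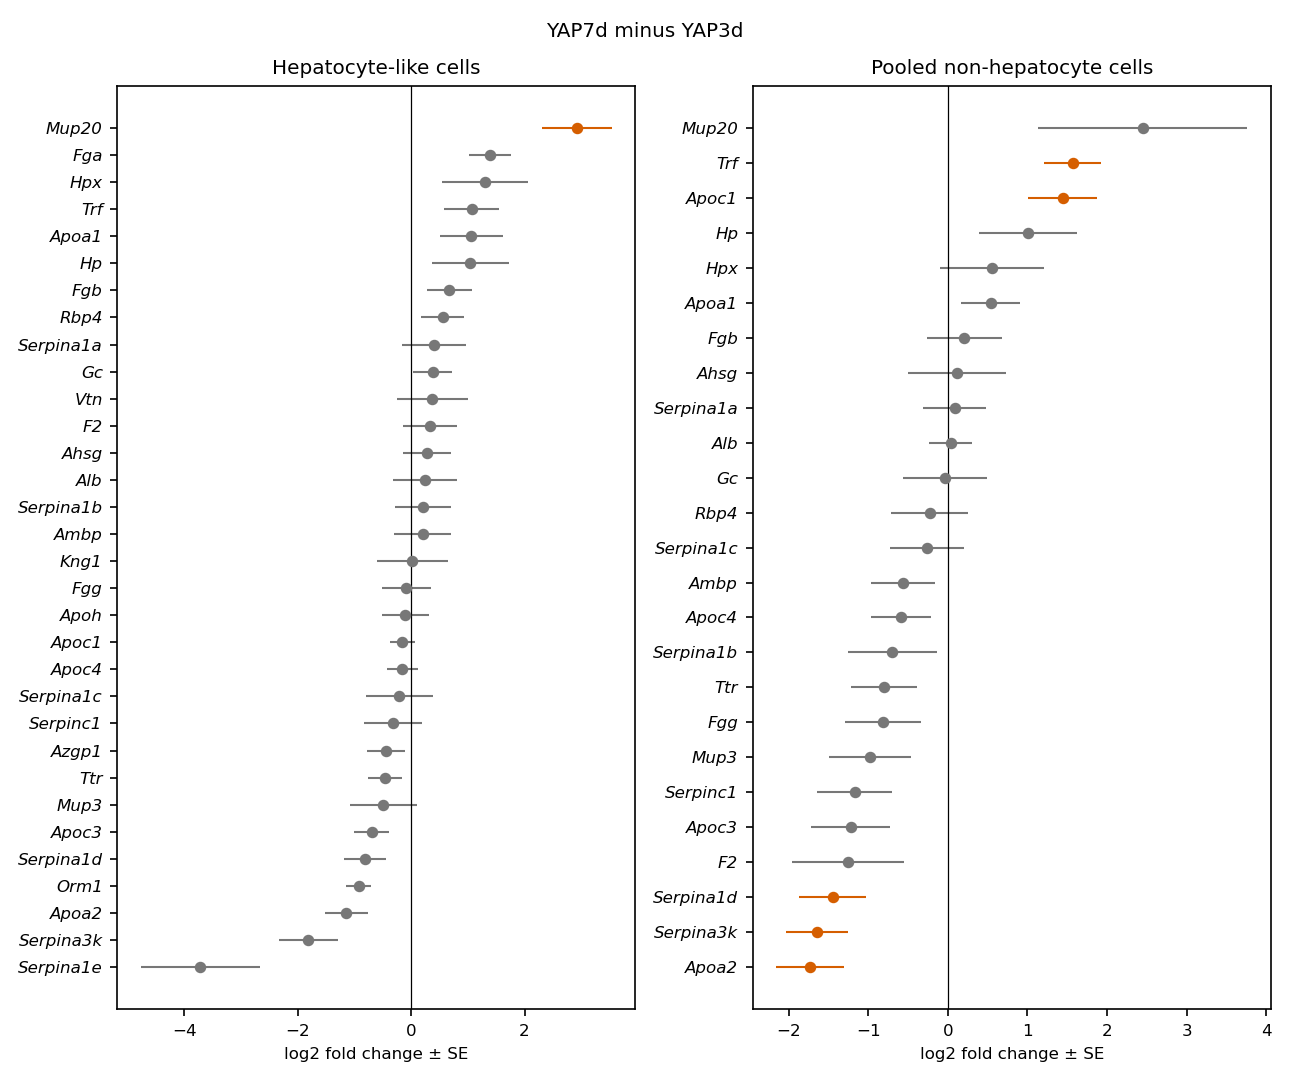
Log2 fold change between YAP7d and YAP3d (horizontal axis, points, with SE bars) of each member that passed the filter, 32 in hepatocyte-like cells (left) and 25 in pooled non-hepatocyte cells (right). Orange marks an edgeR adjusted p below 0.05: Mup20 on the left, Trf, Apoc1, Serpina1d, Serpina3k and Apoa2 on the right.

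In the pooled non-hepatocyte cells, which leave out cholangiocyte-like cells, the members summed to 499.7 and 603 CPM in WT, 573, 616, 580.1 and 534 CPM in YAP3d and 618, 1643 and 920.1 CPM in YAP7d. The 3 YAP7d libraries lay above the other 6, by little in YAP7d replicate 1. All 40 members had at least 9 UMIs in these cells, and 84.4% of the member UMIs came from Apoc1, Trf and Hp, which were singled out after these values were seen. The other 37 members summed to 170 and 91.5 CPM in WT, 221, 98.9, 206 and 163 CPM in YAP3d and 83.4, 143 and 101 CPM in YAP7d, with overlapping groups. In sums over classes of this kind, a change in the mix of cells and a change within a class both enter, so the levels are also given by class.

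Apoc1 was high in macrophage-like cells as well. Macrophage-like cells carried it at 3824 and 3957 CPM in WT, 3203, 563, 2112 and 3907 CPM in YAP3d and 574, 1538 and 547 CPM in YAP7d, and both WT libraries exceeded all 3 YAP7d libraries, while YAP3d spanned from near WT to near the lowest YAP7d. T-cell-like cells of the same libraries had 19.9 to 47.6 CPM. Of the pooled Apoc1 UMIs, 66.0 to 96.8% lay in macrophage-like cells. With each cell thinned to 1500 UMIs, 48.5% of 1051 macrophage-like cells had an Apoc1 UMI (77.4% of 1082 unthinned), against 3.58% of 1705 T-cell-like cells (12.4% of 1737 unthinned), at median depths of 13096 and 4762 UMIs.

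Hp was high in neutrophil-like and monocyte-like cells. Neutrophil-like cells carried it at 4294 and 2383 CPM in WT, 3540.2, 3353, 2985 and 2007 CPM in YAP3d and 2093, 2039 and 1784 CPM in YAP7d, above the level in hepatocyte-like cells of the same library in all 9. These rest on 5 and 24 neutrophil-like cells in WT, 6, 15, 6 and 45 in YAP3d and 5, 1 and 49 in YAP7d, and on only 2 and 1 hepatocyte-like cells in WT. Monocyte-like cells carried it at 506 and 644 CPM in WT, 449, 649, 1104 and 568 CPM in YAP3d and 742, 899 and 818 CPM in YAP7d, and T-cell-like cells at 0 to 28.1 CPM. At 1500 UMIs a cell, 88.2% of 152 neutrophil-like and 55.8% of 1005 monocyte-like cells had an Hp UMI (96.2 and 87.4% unthinned), against 2.23% of T-cell-like cells (5.87% unthinned), at median depths of 2437.5, 10082.5 and 4762 UMIs. As a share of member UMIs, Hp was 72.8 times as high in neutrophil-like and 45.2 times as high in monocyte-like cells as in hepatocyte-like cells of the same libraries.

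Trf, the gene of the iron carrier transferrin, was spread over several myeloid classes. Monocyte-like cells carried it at 79.9 and 250.4 CPM in WT, 157, 219, 113 and 288 CPM in YAP3d and 254, 439 and 334 CPM in YAP7d. Macrophage-like cells carried it at 381 and 741 CPM in WT, 637, 196, 284 and 764 CPM in YAP3d and 185, 429 and 313 CPM in YAP7d, and dendritic-like cells at 71.6 to 146 CPM. T-cell-like cells had 6.6 to 36.3 CPM. At 1500 UMIs a cell, a Trf UMI was found in 38.7% of macrophage-like, 34.8% of monocyte-like and 16.3% of dendritic-like cells, against 3.17% of T-cell-like cells (84.0, 80.3, 67.0 and 9.04% unthinned, at median depths of 13096, 10082.5, 12437 and 4762 UMIs). By the rule that a member stands apart in a class when its share of member UMIs is at least 4 times that in hepatocyte-like cells, over at least 3 libraries with 20 or more UMIs, 4 of 18 combinations stood apart. They were Hp in both classes above, Trf in dendritic-like cells (7.08 times) and Ambp in cholangiocyte-like cells (38.7 times). Apoc1 in macrophage-like cells reached 3.34 times.

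The other 37 members were low in every class but hepatocyte-like and cholangiocyte-like cells. In T-cell-like cells they summed to 42 and 31.3 CPM in WT, 75.3, 55, 52.9 and 55.2 CPM in YAP3d and 60.6, 51 and 55 CPM in YAP7d, which is 0.145 to 0.393 UMIs per cell, and in hepatocyte-like cells of the same library their level was 448 to 1056 times as high. B-cell-like, monocyte-like and dendritic-like cells had medians of 73.6, 66.6 and 55.7 CPM over the libraries, beside 55 CPM in T-cell-like cells. Endothelial-like and macrophage-like cells were higher than T-cell-like cells of the same library in 9 of 9 libraries. Endothelial-like cells stood at 292 and 176 CPM in WT, 333, 366, 358 and 359 CPM in YAP3d and 242, 137 and 368 CPM in YAP7d, with 7, 5 and 4 cells in the YAP7d libraries, and macrophage-like cells at 239.7 and 159 CPM in WT, 379, 194, 481 and 333 CPM in YAP3d and 111, 177 and 162 CPM in YAP7d. The ratio to T-cell-like cells had a median of 6.50 (2.69 to 6.95) for endothelial-like and of 5.03 (1.84 to 9.10) for macrophage-like cells, and in UMIs per cell it was 5.29 and 8.49. For Alb alone, thinned to 1500 UMIs, 7.23% of macrophage-like, 6.37% of endothelial-like, 1.76% of T-cell-like and 2.59% of B-cell-like cells had a UMI, against 95.3% of hepatocyte-like cells (37.2, 15.8, 4.61, 5.23 and 99.1% unthinned).

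**Figure D4:**
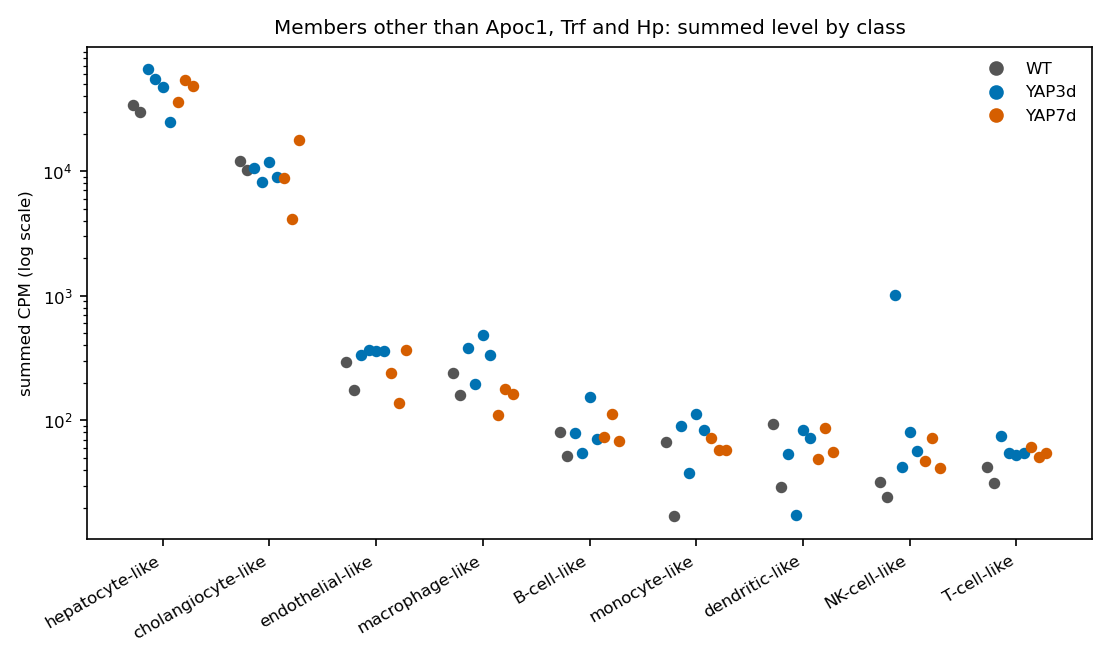
Summed CPM of the 37 members other than Apoc1, Trf and Hp (vertical axis, log scale) in 9 named classes, 1 point per library, with WT grey, YAP3d blue and YAP7d orange. Hepatocyte-like cells lie at 24752 to 65476 CPM and T-cell-like cells at 31.3 to 75.3 CPM. The single high NK-cell-like point, at 1016 CPM in YAP3d replicate 1, comes mostly from 1 cell.

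Between groups, pooled non-hepatocyte cells were compared over all 9 libraries, and 25 of the 40 members passed the filter. The other 15 (Apoa5, Apob, Apoh, Orm1, Azgp1, Serpina1e, Serpina3m, Serpinf2, Fetub, Itih3, Itih4, Fga, Plg, Kng1 and Vtn) were too low to be tested. Between YAP3d and WT no member was called, nor any of 11602 genes (0%) with edgeR or with DESeq2. At an unadjusted p under 0.05, edgeR gave 204 genes and 1 member, Fgg, at 1.06 and 0.577 CPM in WT and 5.84, 3.45, 2.49 and 2.13 CPM in YAP3d, with no overlap (log2 fold change of 2.13 ± 0.68 by edgeR, adjusted p = 0.999). The members' median log2 fold change was 0.60, with 21 of 25 above 0, beside 0.03 over all genes tested. Without WT replicate 2 it was 0.16, with 18 of 25 above 0, with the replicate block 0.39, and without WT replicate 1 it was 0.89. At the lower end F2 (prothrombin), Apoc1 and Ahsg had log2 fold changes of -0.61, -0.44 and -0.29, and at the upper end Mup3 had 1.21 (edgeR adjusted p = 0.999 for each). Ahsg, the gene of fetuin-A, stood at 3.69 and 2.6 CPM in WT, 0, 0.689, 4.36 and 3.39 CPM in YAP3d and 1.89, 2.36 and 2.55 CPM in YAP7d. Mup3 stood at 4.22 and 2.89 CPM in WT, 19.2, 5.51, 6.85 and 3.7 CPM in YAP3d and 3.98, 4.72 and 2.43 CPM in YAP7d. For both the groups overlapped, and YAP3d replicate 1 was the highest for Mup3.

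Between YAP7d and WT, 2 of 25 members were called, against 22.9% of all genes (8.93% higher and 13.9% lower). The 2652 genes called fell to 998 without WT replicate 1 and to 1216 without WT replicate 2. Trf stood at 48.5 and 102 CPM in WT, 81.8, 126, 69.8 and 83.6 CPM in YAP3d and 134, 337 and 251 CPM in YAP7d, and all YAP7d libraries were above all others (log2 fold change of 1.83 ± 0.46 by edgeR, adjusted p = 0.0168 against WT). Apoa2 stood at 39.6 and 13.3 CPM in WT, 31.7, 16.5, 31.8 and 27.5 CPM in YAP3d and 8.15, 11.3 and 3.85 CPM in YAP7d, and all YAP7d libraries were below all others (log2 fold change of -1.62 ± 0.48 by edgeR, adjusted p = 0.0352 against WT). Without WT replicate 1 neither was called, with log2 fold changes of 1.42 and -0.70, and with the replicate block Trf alone was called. The Apoa2 call was also lost without YAP3d replicate 1 or 3 or YAP7d replicate 1 or 3, with log2 fold changes of -1.65 to -1.23. Hp stood at 42.2 and 63.4 CPM in WT, 51.8, 239, 51.1 and 58.6 CPM in YAP3d and 131, 83.3 and 307 CPM in YAP7d, where YAP3d replicate 2 reached the YAP7d range and the YAP7d libraries were above WT (log2 fold change of 1.96 ± 0.80 by edgeR, adjusted p = 0.102). It was called with no filter on low counts and without YAP3d replicate 2, at log2 fold changes of 2.01 and 1.96. Ttr stood at 17.9 and 7.65 CPM in WT, 10.9, 5.17, 10.6 and 12 CPM in YAP3d and 5.12, 8.12 and 2.97 CPM in YAP7d, where YAP7d replicate 2 lay above WT replicate 2 (log2 fold change of -1.08 ± 0.48 by edgeR, adjusted p = 0.132). F2 stood at 2.64 and 2.74 CPM in WT, 0, 0.345, 2.49 and 2.68 CPM in YAP3d and 0.379, 0.786 and 0.669 CPM in YAP7d, with WT above YAP7d (log2 fold change of -1.87 ± 0.79 by edgeR, adjusted p = 0.111). Mup20 stood at 0 and 0 CPM in WT, 5.01, 0, 0 and 0.0788 CPM in YAP3d and 0.758, 6.03 and 2.05 CPM in YAP7d. It had no UMI in either WT library and 4, 23 and 49 UMIs in YAP7d, at least 8.66-fold higher on average, taking 3 UMIs over the WT libraries as the floor. This bound fell to 4.13-fold without YAP7d replicate 2, the library with 23 of these UMIs, and to 1.86-fold without WT replicate 2, the deeper of the WT libraries. It had 6 of its 7 YAP3d UMIs in replicate 1.

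Between YAP7d and YAP3d, 5 of 25 members were called, against 22.3% of all genes (8.6% higher and 13.7% lower). The 2585 genes called were 3947 without YAP3d replicate 2, and 1713, 1688, 1670 and 1611 without YAP3d replicate 3 or 4 or YAP7d replicate 2 or 3, and 1688 with the replicate block. Trf was higher (log2 fold change of 1.57 ± 0.36 by edgeR, adjusted p = 0.0109) and kept its call in 18 of 18 alternatives. Apoc1 was higher too, at 239 and 345 CPM in WT, 218, 152, 253 and 229 CPM in YAP3d and 270, 1079 and 259.7 CPM in YAP7d (log2 fold change of 1.44 ± 0.43 by edgeR, adjusted p = 0.0355). YAP7d replicate 2 was the highest of the 9, and the other YAP7d libraries lay between the WT values and above all YAP3d libraries. The call was lost with the replicate block and without YAP3d replicate 1, 3 or 4 or YAP7d replicate 2, and without the last the log2 fold change was 0.52. The lower members were Apoa2 (log2 fold change of -1.73 ± 0.42 by edgeR, adjusted p = 0.0154), Serpina3k (log2 fold change of -1.65 ± 0.39 by edgeR, adjusted p = 0.0129) and Serpina1d (log2 fold change of -1.45 ± 0.42 by edgeR, adjusted p = 0.0305). Serpina3k stood at 2.64 and 3.46 CPM in WT, 5.01, 3.45, 5.61 and 6.38 CPM in YAP3d and 1.14, 1.31 and 1.71 CPM in YAP7d and Serpina1d at 2.11 and 1.88 CPM in WT, 3.34, 2.07, 4.36 and 4.02 CPM in YAP3d and 1.52, 0.786 and 1.05 CPM in YAP7d, both lower in all YAP7d than in all YAP3d libraries. The Serpina1d call was lost in 11 of 18 alternatives, among them the removal of any library but YAP3d replicate 2, with log2 fold changes of -1.59 to -1.26. Serpina3k lost its call with the replicate block, at -1.51, and without YAP3d replicate 4, at -1.41, and Apoa2 without YAP7d replicate 3, at -1.34. With the replicate block 2 of the 5 were called, and leaving out YAP3d replicate 1, 3 or 4 or YAP7d replicate 2 or 3 left 3, 3, 2, 3 and 3 members called. Alb stood at 24.3 and 15.4 CPM in WT, 34.2, 17.6, 37.4 and 27.8 CPM in YAP3d and 21.6, 32 and 25.8 CPM in YAP7d and Apoc3 at 15.8 and 6.35 CPM in WT, 30.9, 6.2, 14.3 and 11.1 CPM in YAP3d and 5.12, 8.12 and 4.18 CPM in YAP7d, with overlapping groups for both (log2 fold changes 0.03 and -1.22, edgeR adjusted p = 0.942 and 0.0997). By role, 1 lipoprotein gene and 1 carrier rose, and 1 lipoprotein gene and 2 protease inhibitors fell. Apoa1 ranged from 4.48 to 16.8 CPM over the 9 libraries, with overlapping groups.

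The makeup of the pool moved with these groups, and its part in these results was not tested. Of the pooled UMIs, macrophage-like cells supplied 4.84 and 7.52% in WT, 4.85, 22.2, 7.91 and 4.4% in YAP3d and 44.1, 67.9 and 40.9% in YAP7d, and endothelial-like cells 44.6 and 33.3% in WT, 24.1, 7.16, 34.6 and 29% in YAP3d and 0.705, 0.765 and 0.136% in YAP7d. The endothelial-like share depends on the naming of clusters. Cluster 19, left unnamed and out of the pool, had all 15 endothelial markers raised, with Dcn and Col3a1 among its leading genes, and held 0 and 10 cells in WT, 1, 3, 3 and 13 in YAP3d and 18, 18 and 60 in YAP7d, where 7, 5 and 4 cells were named endothelial-like. At resolution 2 the class held 24, 23 and 64 cells in YAP7d. Of the pooled Apoa2 UMIs, 65.0 to 75.0% lay in endothelial-like cells in WT and in YAP3d replicates 3 and 4, 26.3 and 20.8% in YAP3d replicates 1 and 2, and 0 to 4.65% in YAP7d. When endothelial-like, T-cell-like, B-cell-like and macrophage-like cells were given equal weight, the order of the member share turned: it was 0.130% in WT, 0.102% in YAP3d and 0.0510% in YAP7d, whereas in the pooled cells it was 0.0551 ± 0.00728% (SD, n = 2), 0.0576 ± 0.00336% (SD, n = 4) and 0.106 ± 0.0527% (SD, n = 3).

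**Figure D5:**
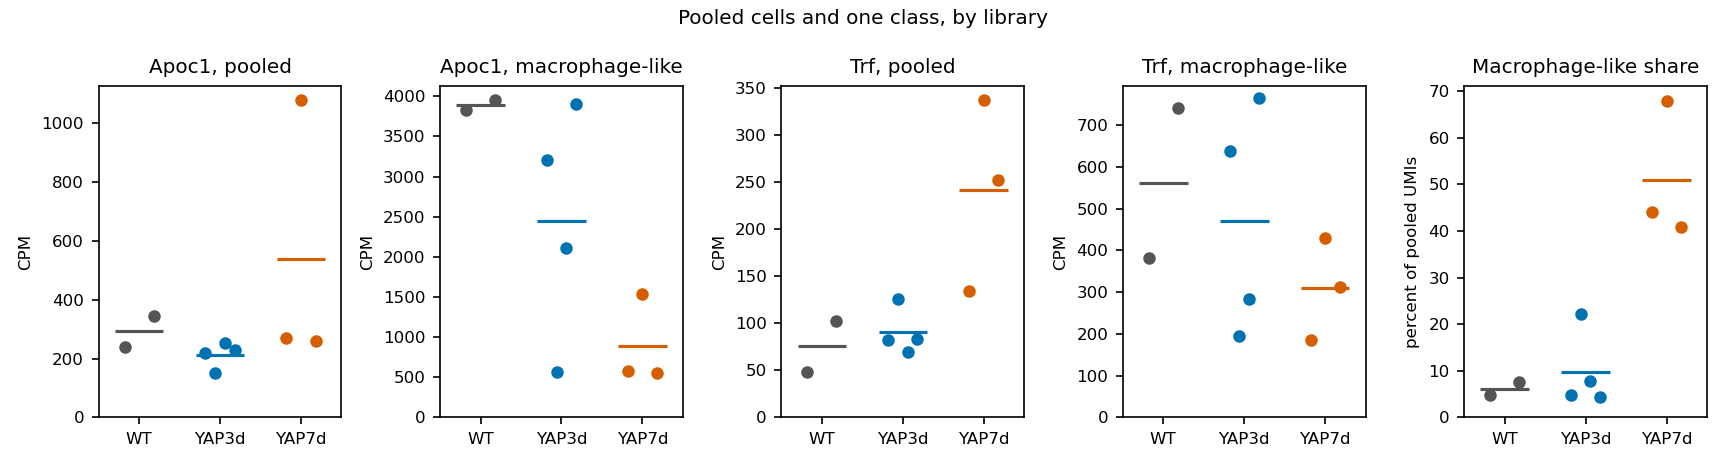
Apoc1 and Trf in pooled non-hepatocyte cells and in macrophage-like cells (CPM, first 4 panels) and the share of pooled UMIs from macrophage-like cells (percent, last panel), 1 point per library with bars at group means. In the pool both genes have their highest mean in YAP7d, in macrophage-like cells both have their lowest mean in YAP7d, and the macrophage-like share is 4.4 to 22.2% in WT and YAP3d and 40.9 to 67.9% in YAP7d.

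Single classes were then tested. The macrophage-like class held 3 clusters in different proportions by group, and the part of this in the results below was not tested. Cluster 13 had 11 and 49 cells in WT, 3, 0, 7 and 60 in YAP3d and none in YAP7d. Cluster 14 had 17 and 8 cells in WT, 8, 42, 16 and 10 in YAP3d and 93, 141 and 142 in YAP7d, and cluster 22 had 3 and 10, 1, 17, 5 and 12, and 63, 68 and 296. The clusters differed in Apoc1, which reached 2993 to 4928 CPM in cluster 13 and at most 413 CPM in cluster 22. In macrophage-like cells 10 members were tested. None was called by edgeR between YAP3d and WT (0% of 6739 genes) or between YAP7d and WT (1.42%). All YAP7d libraries had less Apoc1 than both WT libraries within these cells (log2 fold change of -2.21 ± 0.54 by edgeR, adjusted p = 0.0502). It was just above the threshold, and 7 of 16 alternatives put it below, among them DESeq2, the replicate block and the fits without YAP3d replicate 2, YAP3d replicate 4 or YAP7d replicate 2. In cluster 14 alone, which every library held, Apoc1 stood at 5277 and 2778 CPM in WT and at 896, 2140 and 1451 CPM in YAP7d, without overlap. Trf, which was called as higher in the pool, had log2 fold changes of -0.95 against WT and -0.57 against YAP3d (edgeR adjusted p = 0.304 and 0.608). Between YAP7d and YAP3d 1 member was called, against 0.252% of genes. These shares rest on few calls that single libraries moved. With 1 library left out, the 96 genes called between YAP7d and WT became 0 (without WT replicate 2) to 445 (without YAP3d replicate 2), and stayed within 1.5 times only without YAP3d replicate 3 or YAP7d replicate 1. The 17 genes called between YAP7d and YAP3d became 4 (without YAP3d replicate 4) to 415 (without YAP3d replicate 2), and stayed within 1.5 times only without YAP7d replicate 1. The member was Apoa2, at 43.6 and 25 CPM in WT, 51.7, 31.1, 39.4 and 46.5 CPM in YAP3d and 11.6, 14.3 and 6.04 CPM in YAP7d, with all YAP7d libraries below all others (log2 fold change of -1.96 ± 0.39 by edgeR, adjusted p = 0.0446). The call was lost in 12 of 16 alternatives, including the removal of any library but YAP3d replicate 2, with log2 fold changes of -2.20 to -1.66. These are counts of 3 to 59 UMIs in a library. In cluster 14 alone Apoa2 stood at 86.4, 36.0, 118 and 87.0 CPM in YAP3d and at 15.1, 17.0 and 9.17 CPM in YAP7d, on 2 to 14 and 22 to 31 UMIs. In WT it stood at 89.9 and 0 CPM there, on 3 and 0 UMIs, so WT replicate 2 lay below all YAP7d libraries.

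T-cell-like cells let 2 members be tested, Apoc1 and Trf. Their log2 fold changes between YAP7d and WT were 0.49 and 0.41, and neither was called in any of the 3 comparisons (0, 0.133 and 2.01% of 6018 genes called), nor had an unadjusted p under 0.05, and DESeq2 gave no call either. The shares themselves moved: the 8 genes called between YAP7d and WT became 0 without WT replicate 1 or 2, YAP3d replicate 2 or 3 or YAP7d replicate 2, 17 and 50 without YAP3d replicate 1 or 4, 1 and 4 without YAP7d replicate 1 or 3, and 150 with the replicate block. The 121 genes called between YAP7d and YAP3d became 54 and 39 without YAP3d replicate 1 or 3, 62, 58 and 69 without YAP7d replicate 1, 2 or 3, and 315 with the block. In B-cell-like cells no member passed the filter. In endothelial-like cells YAP3d and WT could be compared, and 0 of 11 members tested were called (0% of 7545 genes). Of the 11, 10 were above 0, with a median of 0.89 beside 0.01 over all genes tested. These values were not stable: without WT replicate 2 the median was 0.50, with 8 of 11 above 0. DESeq2 called none of the 11 members either, and with no filter on low counts 1 of 39 was called. Alb stood at 36.7 and 24.2 CPM in WT and 69.4, 81.8, 55.8 and 62.5 CPM in YAP3d in these cells, without overlap (log2 fold change of 1.14 ± 0.27 by edgeR, adjusted p = 1).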

How the data were processed

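The authors sequenced 3′ gene expression libraries of single liver cells, 1 library per mouse, mapped them to mm10 with Cell Ranger, per the labels, and deposited raw UMI counts of 27998 genes in 8562 cells (Seurat 2 is named for their clustering). The deposited counts were used as they are. The members and all lists were chosen with earlier results of these data known.

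Cells with under 200 detected genes were left out. Clusters came from scanpy 1.11.5 (2500 variable genes, members and cell cycle genes excluded, 30 components, 15 neighbours, leidenalg 0.10.2 at resolution 1). They were named from fixed markers, with the ending "-like". A name needed at least 3 markers raised (log2 ratio above 1 over clusters of other classes). It also needed at least 1 marker among the 10 leading genes of the cluster, and no other class with more markers there. Doublet scoring marked 60 cells (0.704%), none hepatocyte-like, and they stayed in. Counts were summed per class and library over at least 10 cells (5 for hepatocyte-like cells), filtered with filterByExpr, scaled with TMM and tested with edgeR 4.0.16 (R 4.3.3) by the quasi-likelihood test over all libraries of that class. Adjusted p-values are Benjamini-Hochberg values over all genes tested, called below 0.05. They measure the spread between libraries, 1 per mouse. Libraries held 1314878 to 25056881 UMIs. Shares and the floor of 3 UMIs cover counting error only. In simulated data with known changes the test recovered 80.8% of genes changed by a log2 of 2 and 8.16% of those changed by 1 in pooled cells (YAP7d against WT, 11320 genes), 94.4 and 20.7% in hepatocyte-like cells (YAP7d against YAP3d, 1676 genes) and 54.3 and 10% in macrophage-like cells (YAP7d against WT, 6410 genes), with 7, 4 and 3 false calls.

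Values by library were given for Alb, Apoa1, Apob, Ttr, the Serpina1 family, Mup3, Mup20, the acute-phase members, the 6 highest members of the pooled cells and the 3 largest and 3 smallest log2 fold changes of each pooled or hepatocyte-like comparison. Other members were named after their values were seen. Alternatives were DESeq2 1.42.0, its size factors, no filter on low counts, a replicate block, stricter cell filters, Leiden resolution 2, library sizes without the members, removal of doublets and each library left out. Replicate numbers did not pair the libraries: the deviations of same-numbered libraries correlated at -0.356 to 0.335, above 0.1 in 4 of 7 pairs. Differently numbered libraries correlated at -0.427 (WT replicate 1 with YAP7d replicate 3) to 0.440 (YAP3d replicate 4 with YAP7d replicate 3). No fit took this into account.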

Additional observations from a re-analysis of the deposited data

Results flagged for a closer look

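In 8 of 76 values tested, 1 of the 4 YAP3d libraries stood far from the other 3. The rule is set to flag about 1 in 20 by chance. The values overlap, and some rest on few UMIs, so no excess over chance can be read from this count. In hepatocyte-like cells Serpina1a was 3239 CPM in YAP3d replicate 3. In pooled non-hepatocyte cells Hp was 239 CPM in YAP3d replicate 2, from 695 UMIs, while Fgb was 5.84 CPM and Mup20 5.01 CPM in YAP3d replicate 1, from 7 and 6 UMIs. The 40 members summed to 214 CPM in B-cell-like cells of YAP3d replicate 3. In T-cell-like cells of YAP3d replicate 1 the 37 members other than Apoc1, Trf and Hp summed to 75.3 CPM. In NK-cell-like cells of YAP3d replicate 1 the 40 members summed to 1421 CPM and the 37 to 1016 CPM, and 1 cell of 5154 UMIs held 54 UMIs of the 37 members.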

How the results depend on the processing

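Of 266 recomputed counts and shares over 18 results, 211 stayed within 1.5 times the reported count or 1 SD of the reported share, and 55 did not. These totals include B-cell-like cells, where no member passed the filter in the main fit, so that their counts could hardly move. They also include the member UMIs per cell, which differ from a percent share by their unit alone. Of 604 recomputed log2 fold changes over 37 results, 529 kept direction and side of the threshold, 45 lost the call, 23 gained one and 7 turned in direction. The cause was not tested.

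Between YAP7d and WT in pooled cells, 4 members were called with no filter on low counts and 0 to 3 with 1 library left out. Between YAP7d and YAP3d in pooled cells, leaving out 1 library gave 2 to 7 members. In hepatocyte-like cells 9 members were called with no filter (162 of 11610 genes), 4 with DESeq2 (74 of 1651) and 2 with at least 10 cells a library (56 of 1713). With 1 library left out, 0 to 2 members were called there, beside 4 to 61 genes. In macrophage-like cells between YAP7d and WT, 1 was called with DESeq2, with its size factors or with no filter, and 0 to 1 with 1 library left out. Between YAP7d and YAP3d there, 2 were called with no filter, 0 with DESeq2, with the stricter cell filter and at resolution 2, and 0 to 3 with 1 library left out. In endothelial-like cells 1 was called with no filter, and at resolution 2, where YAP7d could be fitted, 1 of 10 was lower against WT and 3 of 10 against YAP3d. The share of all genes called in these endothelial-like fits is not given here, so the counts do not set the members apart from other genes. The replicate block gave 1 and 2 members in pooled cells (YAP7d against WT and against YAP3d), 2 in hepatocyte-like cells, and 1 and 0 in macrophage-like cells. The numbers did not pair the libraries. Leaving out the NK-cell-like cell with the high member share, an alternative chosen after seeing the data, left 0, 2 and 5 members called in pooled cells, and Mup20 no longer passed the filter.

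The pooled member share in WT, YAP3d and YAP7d was 0, 0.0190 and 0.0464% as a median over cells, 0.130, 0.102 and 0.0510% with 4 classes weighted equally, and 2.44, 2.97 and 11.2 as member UMIs per cell. Leaving out 1 library of the group gave 0.04997 to 0.0603%, 0.0562 to 0.0590% and 0.0769 to 0.128%. With 1 library left out, 5 uncalled results turned in direction in at least 1 fit (log2, lowest to highest): -0.87 to 0.037 for Ahsg in pooled cells and -0.90 to 0.28 for Trf in macrophage-like cells (both YAP3d against WT), and in T-cell-like cells -0.55 to 0.72 and -0.15 to 1.34 for Trf (YAP3d and YAP7d against WT) and -0.14 to 0.20 for Apoc1 (YAP7d against YAP3d). Of 40 members 15 could not be tested in pooled cells, and WT had 3 hepatocyte-like cells.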

Other observations

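The 49 cholangiocyte-like cells carried several members at high levels. Alb stood at 4981 and 4748 CPM in WT, 5754, 4084, 4740 and 3474 CPM in YAP3d and 4499.9, 1616 and 7836 CPM in YAP7d, and 97.9% of these cells had an Alb UMI after thinning to 1500 UMIs. Ambp, which encodes alpha-1-microglobulin and bikunin, stood at 2780.3 and 2509 CPM in WT, 1907, 454, 2024 and 2059.6 CPM in YAP3d and 1741, 924 and 2040.3 CPM in YAP7d. Hepatocyte-like cells of the induced libraries had 105 to 532 CPM of it. Apoa2, by contrast, had a UMI in 4.17% of thinned cholangiocyte-like cells and in 88.8% of thinned hepatocyte-like cells. These values rest on 1 to 15 cells a library.

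Mitochondrial genes made up a median of 0.125% of UMIs in hepatocyte-like cells and 2.73% in pooled non-hepatocyte cells. Their part in the levels of the members was not tested.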
